A study of Mus musculus with 9 samples.

Results

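The Obox genes form a cluster of homeobox genes on mouse chromosome 7 that are transcribed in the oocyte. Transcript levels of 6 members, Obox1, Obox2, Obox3, Obox5, Obox6 and Obox7, were compared here among XX, XO and XY oocytes. They were chosen by gene name and are 6 of the 28052 genes in the matrix of UMI counts. Other entries of the matrix whose name starts with Obox, most of them pseudogenes, are described by their counts only.

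The study examined how the sex chromosome complement affects the transcriptome of growing oocytes. RNA of 9 samples was sequenced, 3 per genotype, and each sample was a pool of 30 oocytes, 10 of 50–55 µm and 20 of 55–60 µm in diameter, from females of 18 dpp. XY females and their XX littermates were daughters of B6.Y-TIR males and B6 females, so that the Y chromosome came from another mouse stock than the B6 autosomes. XO females were daughters of males that carry the Paf mutation, on a background backcrossed from C3H/HeSnJ to B6, and therefore differed from XX and XY females in parentage as well as in sex chromosomes, and for XO against the others these cannot be told apart. The labels name C57BL/6 as the strain of all samples and describe no treatment of the females.

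Homeobox genes encode transcription factors that bind DNA through a conserved domain, the homeodomain. The Obox genes, which take their name from oocyte-specific homeobox, arose by repeated duplication within rodents and belong to the PRD class together with Crx and Otx genes. Their transcripts are stored in the oocyte, and OBOX proteins are known to take part in the activation of the embryonic genome after fertilization.

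The members lay between positions 14659496 and 15839678 of chromosome 7 (GRCm38), a span of 1180 kb. Obox7 (ENSMUSG00000055942.13, 14659496–14665996) lay at one end and Obox6 (ENSMUSG00000041583.8, 15833241–15839678) at the other. Between them were Obox2 (ENSMUSG00000074369.12, 15388721–15398545), Obox1 (ENSMUSG00000054310.16, 15388948–15556866), Obox3 (ENSMUSG00000066772.12, 15479825–15639902) and Obox5 (ENSMUSG00000074366.9, 15750131–15759800). Of the 34 entries of the matrix that overlap this span, 33 were members or further Obox entries and 1 was another pseudogene, Mrip-ps, with 1 UMI.

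How far the copies can be told apart bears on every value below. In Gencode vM21, the first exon of 1 Obox1 transcript (15388948–15389006, 59 bases) lay on the same strand within the first exon of Obox2 (15388721–15389006). Of all stretches of 100 bases in Obox1 transcripts, 42.3% were found unchanged in an Obox2 transcript, and 47.2% of those of Obox2 were found in Obox1. Coding sequences of Obox1 and Obox2 were 98.5% identical over 453 aligned bases. UMIs of these 2 genes could thus have been exchanged by the alignment, so their separate values are uncertain and their sum is safer. For Obox5 and Obox7, whose coding sequences were 96.0% identical over 654 bases, 1.75% and 2.34% of the stretches were shared. Neither Obox3 nor Obox6 shared a stretch with another member, although 8.89% of the stretches of Obox3 also occurred in other Obox entries. Obox6 was the most diverged member, with 75.5–80.3% identity to the others.

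The similarity can be read from a part of the homeobox in the third exon, which is shown for the 5 closest copies (GRCm38, chromosome 7, 5′ to 3′ in the direction of transcription). Capitals mark bases that differ from Obox1 after alignment. They lie for Obox1 at chr7:15555599-15555670 (plus strand), Obox2 at chr7:15397282-15397352 (plus strand), Obox3 at chr7:15626830-15626901 (minus strand), Obox5 at chr7:15757973-15758044 (plus strand) and Obox7 at chr7:14664474-14664545 (plus strand), all within annotated coding exons.
Obox1: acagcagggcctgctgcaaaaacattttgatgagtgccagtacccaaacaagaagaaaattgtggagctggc
Obox2: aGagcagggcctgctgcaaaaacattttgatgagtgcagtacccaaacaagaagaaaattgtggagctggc
Obox3: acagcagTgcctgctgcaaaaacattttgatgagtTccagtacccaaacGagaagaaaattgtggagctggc
Obox5: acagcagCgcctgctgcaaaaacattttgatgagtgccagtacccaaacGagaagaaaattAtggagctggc
Obox7: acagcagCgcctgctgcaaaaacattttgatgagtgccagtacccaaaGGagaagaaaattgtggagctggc
The stretch is 72 bases long in Obox1, Obox3, Obox5 and Obox7 and 71 in Obox2. The whole exon is 200 bases in those 4 genes and 199 in Obox2, so 1 base is missing from Obox2. Its coding sequence, 453 bases, was also the shortest among the members, against 612 for Obox1, 654 for Obox7, 873 for Obox5, 1005 for Obox3 and 1041 for Obox6. Over the whole exon, Obox1 was 98.5% identical to Obox2 and 90.5% identical to Obox7.

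The start regions of 5 members were found among RefSeq promoters (GRCm38.p6), which reach from 250 bases before to 50 bases after the start of a gene. They are compared because most members were expressed together in these oocytes. The promoters of Obox1 and Obox2 were identical over 203 aligned bases, and those of Obox5 and Obox7 were 97.8% identical over 271. A run of 25 bases was common to all 5. The 30 bases that overlap its end are printed 5′ to 3′ in the direction of transcription, and capitals mark a CANNTG motif (E-box), here CAAGTG. They lie at chr7:15547170-15547199 for Obox1, chr7:15388861-15388890 for Obox2, chr7:15639846-15639875 (minus strand) for Obox3, chr7:15750271-15750300 for Obox5 and chr7:14659635-14659664 for Obox7. All 5 lie within the gene spans given above, and that of Obox2 lies within its first exon in Gencode vM21 (15388721–15389006). By those spans they are thus not upstream of the genes. For Obox1, however, the span begins with a transcript whose first exon lies within that of Obox2. Lying in this span thus does not place the Obox1 stretch after the start of its other transcripts.
Obox1: ggatttgaatattgCAAGTGggtggagcca
Obox2: ggatttgaatattgCAAGTGggtggagcca
Obox3: ggatttgaatattgtaagtaggtggagcca
Obox5: ggatttgaatattgCAAGTGggtggagcca
Obox7: ggatttgaatattgCAAGTGggtggagcca
The motif CAAGTG, searched on both strands of the whole promoter, was found in Obox1, Obox2, Obox5 and Obox7, not in Obox3, and in 13.6% of all 32817 promoters. The promoters of these 4 members were 92.6–100% identical to each other over aligned bases, so their motifs are not independent finds. A part of the motif in expression was not tested. Every CAAGTG is also a CANNTG, the general form of the E-box, which occurred in the same 4 members and in 72.3% of promoters. The motif TATATA was found in Obox1, Obox3, Obox5 and Obox7 and in 5.67% of promoters. GGATTA, a sequence that Otx-type homeodomains bind, was found in Obox3 alone of the 5 and in 7.06% of promoters, while the homeodomain core sequences TAATTA (5.30% of promoters) and TAATTG (8.0%) were found in none of the 5.

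The libraries were made by Smart-seq3, in which a unique molecular identifier (UMI) marks the 5′ end of each transcript. A UMI stands for 1 molecule whatever its length, and UMIs were thus compared between genes without division by length. Genes received between 2130145 and 3157338 UMIs per sample, and ERCC spike-in RNAs 0.204–0.862% of all UMIs. Normalized CPM are the UMI counts scaled by the authors with 1 factor per sample, from the gene total and a TMM factor computed among the spike-ins. The share of spike-in UMIs in a sample does not enter this factor, so normalized CPM are not amounts per spike-in. Summed over 10 oocyte markers (such as Zp3, Gdf9 and Ddx4) the level was 17992–29538 normalized CPM, whereas 5 granulosa cell markers of 8 that are in the matrix amounted to 11.9–56.4 and 4 theca and stroma markers of 6 to 0.305–3.92. XO1 stood apart from the other 2 XO samples: its mean Spearman coefficient with them over 10993 genes was 0.646, while in the other 8 samples this mean lay between 0.788 and 0.948. XO1 is the XO column that carries no number in the matrices and in its label. Since it stood apart within XO, contrasts with XO oocytes are given with and without XO1. The same coefficient was not computed between genotypes, so XO1 is not shown to be the odd sample. For the gene Nobox, XO1 (56.4 normalized CPM) was near the XX and XY means (79.3 and 109), unlike XO2 (522) and XO3 (1138). For the Obox sum, XO1 was the highest of all samples. Fits without XO1 are thus an alternative and not a corrected result.

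The 6 genes together received 135769 UMIs, and nearly all of them came from 4 members. Obox1 had 73575, Obox2 31753, Obox5 25644 and Obox7 4700 UMIs over the 9 samples, whereas Obox6 had 77 and Obox3 20. By its mean in XX oocytes, Obox1 ranked 21 among the 28052 genes, Obox2 77, Obox5 90 and Obox7 542, and Obox6 ranked 9648. In single samples the rank of Obox1 lay between 20 and 117. The 29 other Obox entries had 271 UMIs in all, of which Obox4-ps27 had 50.

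Obox1, the most abundant member, was measured at 3761, 4650 and 2658 normalized CPM in the 3 XX samples, while the XO samples had 5086, 2149 and 1945 and the XY samples 4374, 2685 and 1789. The mean of the XX samples was 3690 ± 998 (SD, n = 3), that of the XO samples 3060 ± 1758 and that of the XY samples 2949 ± 1313. The highest of the 9 values was that of XO1 and the lowest that of XY3, and the 3 genotypes overlapped. In pools of oocytes, fewer transcripts per oocyte and fewer oocytes with the transcript cannot be told apart. Obox2 followed nearly the same order of samples, at 1537, 2029 and 1166 normalized CPM for the XX samples, 2286, 909 and 854 for XO and 1859, 1121 and 810 for XY. Its means were 1577 ± 433, 1350 ± 811 and 1263 ± 539 (SD, n = 3), and these genotypes overlapped as well.

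Obox7 showed the same pattern among samples at a lower level. It reached 230, 285 and 143 normalized CPM in the XX samples, 324, 186 and 116 in the XO samples and 313, 172 and 113 in the XY samples. The means of 219 ± 71.2, 209 ± 106 and 200 ± 103 (SD, n = 3) differed by less than the spread of each genotype.

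Obox5 was the member that varied least among samples. It was measured at 1375, 1541 and 1130 normalized CPM in the XX samples, 1058, 867 and 1193 in the XO samples and 1121, 970 and 739 in the XY samples, with means of 1349 ± 207, 1040 ± 164 and 943 ± 192 (SD, n = 3). All 3 XX samples were above all 3 XY samples, as was the case for 4.15% of the genes tested, but the lowest XX value (XX3) was close to the highest XY value (XY1). XX3 was below XO3. The highest sample exceeded the lowest 2.09-fold, against 2.84-fold for Obox1, 2.82-fold for Obox2 and 2.86-fold for Obox7.

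Obox6 and Obox3 were near the limit of detection. Obox6 had 9, 14 and 11 UMIs in XX samples, 7, 1 and 1 in XO samples and 4, 17 and 13 in XY samples, or 3.82 ± 0.94, 1.57 ± 1.78 and 3.77 ± 1.84 normalized CPM (SD, n = 3). XO2 and XO3 were below all XX and XY samples, and XO1 was not. Obox3 had between 1 and 4 UMIs in each sample, 20 in all, and did not pass the filter on low counts. A difference in Obox3 was not detectable at this depth.

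**Figure D1:**
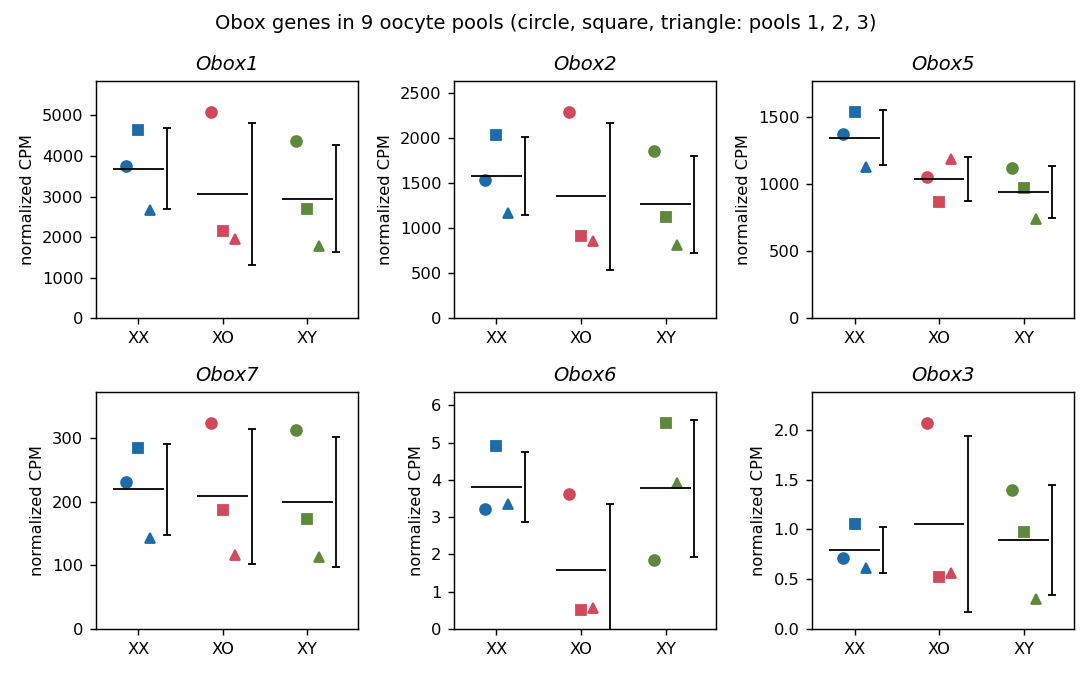
Normalized CPM (y axis) of the 6 Obox genes in XX, XO and XY oocyte pools (x axis), 1 panel per gene with its own scale from 0. Points are single pools (circle, square and triangle for pools 1, 2 and 3), horizontal bars the mean and error bars the SD of 3 pools, cut off at 0 for Obox6 in XO; for Obox1, Obox2 and Obox7 the pool numbered 3 is the lowest of each genotype, and for Obox6 XO2 and XO3 lie below the other 7 pools.

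The sum of the 6 genes does not depend on how UMIs were divided among them. Reads that were discarded or placed on other entries would still change it, and their handling is not given. The sum was 6907, 8511 and 5101 normalized CPM in the XX samples, 8761, 4112 and 4109 in the XO samples and 7670, 4955 and 3455 in the XY samples, with means of 6840 ± 1706, 5661 ± 2685 and 5360 ± 2137 (SD, n = 3). The highest sum was that of XO1 and the lowest that of XY3, so that the genotypes overlapped. The log2 ratio of means was 0.27 for XX over XO, 0.35 for XX over XY and -0.08 for XY over XO, each smaller than the SD of the log2 sums within genotypes, 0.52, 0.48 and 0.60. On some other scales this did not hold for XX. As a share of gene UMIs the ratio of XX over XO was 0.81 with an SD of 0.55 and that of XX over XY 0.49 with an SD of 0.45. With TMM factors these were 0.66 with 0.63 and 0.510 with 0.507, barely above the SD. With DESeq2 size factors the ratios were again smaller than the SD, 0.53 with 0.66 for XX over XO and 0.50 with 0.55 for XX over XY. Without XO1, the ratio of XX over XO was 0.73 and that of XY over XO 0.38.

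As a share of all gene UMIs, the Obox genes made up 0.777, 0.993 and 0.636% in the XX samples, 0.734, 0.348 and 0.289% in the XO samples and 0.775, 0.573 and 0.363% in the XY samples. The highest, in XX2, had a 95% Wilson interval of 0.981–1.01% and the lowest, in XO3, one of 0.282–0.296%, so the range among pools was far beyond counting error. XX oocytes had a mean share of 0.802 ± 0.180%, XO oocytes one of 0.457 ± 0.242% and XY oocytes one of 0.570 ± 0.206% (SD, n = 3). XO2 and XO3 lay below all XX samples, and XO1 did not.

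Within each genotype, the pool numbered 3 was the lowest in Obox1, Obox2, Obox7 and the sum. The sum in pool 3 was 0.739 times that of pool 1 in XX, 0.469 times in XO and 0.450 times in XY oocytes. For Obox5 the same ratio was 0.822, 1.13 and 0.659. Summed granulosa markers were highest in the same pools, with 32.1, 23.1 and 44.2 normalized CPM in XX1, XX2 and XX3, 11.9, 29.0 and 41.8 in the XO samples and 24.6, 31.3 and 56.4 in the XY samples. Summed theca and stroma markers were instead highest in pool 1 of each genotype. They were 3.92, 0.350 and 0.305 in the XX samples, 1.55, 1.03 and 1.13 in XO and 2.32, 1.63 and 0.604 in XY. Summed markers of blood and vessels, of which 2 of 5 are in the matrix, were 19.3–49.7 in XX, 16.1 in XO1, 110 and 132 in XO2 and XO3, and 27.0–59.2 in XY samples. The part of other cells in the Obox levels was not tested.

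Obox1 and Obox2 kept an almost constant proportion. The ratio of their UMIs was 2.45, 2.29 and 2.28 in XX, 2.22, 2.36 and 2.28 in XO and 2.35, 2.39 and 2.21 in XY samples, with a coefficient of variation of 3.40% over the 9 samples. The spread of this split, as chi-square per degree of freedom over the 9 samples, was 2.93, where 1 would be counting error alone. For Obox1 and Obox7 the ratio lay between 11.5 and 18.5 (coefficient of variation 12.5%, chi-square per degree of freedom 6.93).

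Obox5 departed from this proportion. The ratio of Obox1 to Obox5 UMIs was 2.74, 3.02 and 2.35 in XX, 4.81, 2.48 and 1.63 in XO and 3.90, 2.77 and 2.42 in XY samples, and its chi-square per degree of freedom was 159. Obox5 made up 12.1% of the Obox UMIs of XO1 (95% Wilson interval 11.6–12.6%), 21.1% of those of XO2 and 29.0% of those of XO3 (28.0–30.1%), against 18.1–22.1% in XX and 14.6–21.4% in XY samples. The genotype means of this share, 20.1 ± 2.02% (XX), 20.7 ± 8.49% (XO) and 18.5 ± 3.51% (XY; SD, n = 3), differed by less than the spread within XO. Intervals cover counting error only.

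**Figure D2:**
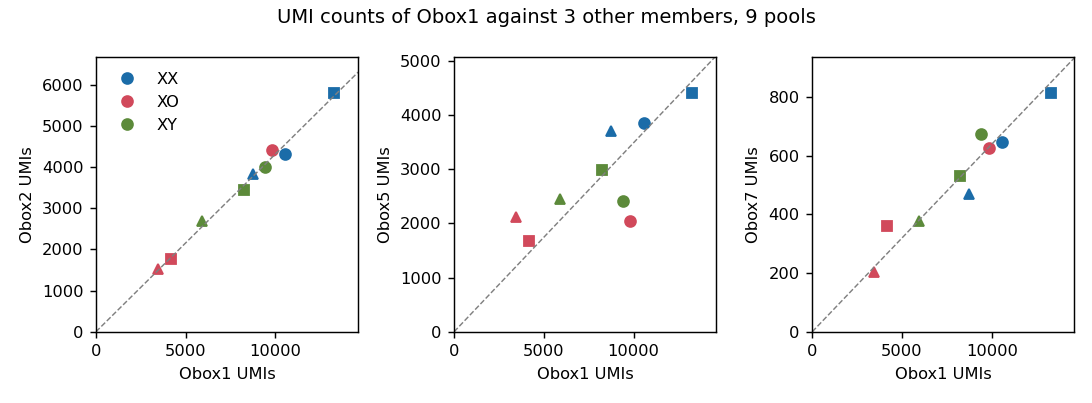
UMI counts of Obox1 (x axis) against Obox2, Obox5 and Obox7 (y axes), linear scales from 0, 1 point per pool with colour for genotype and circle, square and triangle for pools 1, 2 and 3. The dashed line is the ratio of the summed counts; Obox2 stays on it (ratios of 2.21–2.45), Obox7 near it (11.5–18.5), and Obox5 leaves it most in XO1 (ratio 4.81) and XO3 (1.63).

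The Pearson coefficient of log2(normalized CPM + 1) over the 9 samples, given as a description, was 0.996 between Obox1 and Obox2, 0.946 between Obox1 and Obox7, 0.627 between Obox1 and Obox5 and 0.408 between Obox1 and Obox6. Samples of the 3 genotypes and the scaling factors enter all of these values, and Obox1 and Obox2 can share UMIs. Among 7272 other genes whose mean reached 10 normalized CPM, the 5 genes most like the Obox sum over the 9 samples were Nlrp2 (0.987), a maternal-effect gene of the oocyte, the olfactory receptor gene Olfr976 (0.982), Tmem29 (0.974), the oocyte-expressed gene Rfpl4 (0.971) and Slc35a5 (0.968). Rfpl4 was measured at 3392, 3822 and 2205 normalized CPM in the XX samples, 4420, 2178 and 2076 in the XO samples and 4101, 2516 and 1959 in the XY samples. Its highest value was in XO1 and its lowest in XY3, as for the Obox sum. Since Rfpl4 was picked by its likeness to the sum over these samples, this is not a further finding.

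Genotypes were compared with edgeR's quasi-likelihood test on the UMI counts of 10993 genes, with the spike-in factors and all 9 samples in 1 fit, and a gene was called at an unadjusted p below 0.05, the threshold of the study. Of the 6 Obox genes, 5 passed the filter on low counts, all but Obox3. No member was called in any of the 3 contrasts, neither at the unadjusted nor at the adjusted threshold. The calls over all genes tested amounted to 18.1% for XX against XO, 5.8% for XX against XY and 9.93% for XY against XO. With DESeq2, which differs in both test and scaling, 1 of the 5 was called in each of the contrasts with XX, and its values are given with Obox5.

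In XX against XO oocytes, edgeR gave Obox1 a log2 fold change of 0.27 ± 0.54 (SE, adjusted p = 0.797) and Obox2 one of 0.22 ± 0.51 (adjusted p = 0.826). The value of Obox7 was 0.07 ± 0.49 (adjusted p = 0.946) and that of Obox5 0.38 ± 0.34 (adjusted p = 0.550). Each interval of 1 SE around the values of Obox1, Obox2 and Obox7 included 0. With the spike-in factors the median of all tested genes was -0.46 on the log2 scale in this contrast, so these members stood 0.53 (Obox7) to 0.83 (Obox5) above it. Without XO1 the values were 0.85 for Obox1 (adjusted p = 0.191 by edgeR), 0.84 for Obox2 (adjusted p = 0.167), 0.39 for Obox5 and 0.54 for Obox7, and none of these 4 was called.

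In XX against XY oocytes, the log2 fold change was 0.32 ± 0.54 for Obox1, 0.32 ± 0.51 for Obox2, 0.52 ± 0.34 for Obox5 and 0.14 ± 0.49 for Obox7 (SE), and edgeR's adjusted p was 1.00 for each. The median of all tested genes was -0.19. Higher values in XX oocytes were thus found for these 4 members, by less than the test can tell from the spread between pools.

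In XY against XO oocytes, Obox1, Obox2, Obox5 and Obox7 had log2 fold changes of -0.05, -0.10, -0.14 and -0.06, with an adjusted p by edgeR between 0.883 and 0.974, and the median of all genes was -0.30. These small values changed sign with TMM factors computed over genes, to 0.16, 0.12, 0.16 and 0.15. No direction can be given for these 4 members between XY and XO oocytes.

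**Figure D3:**
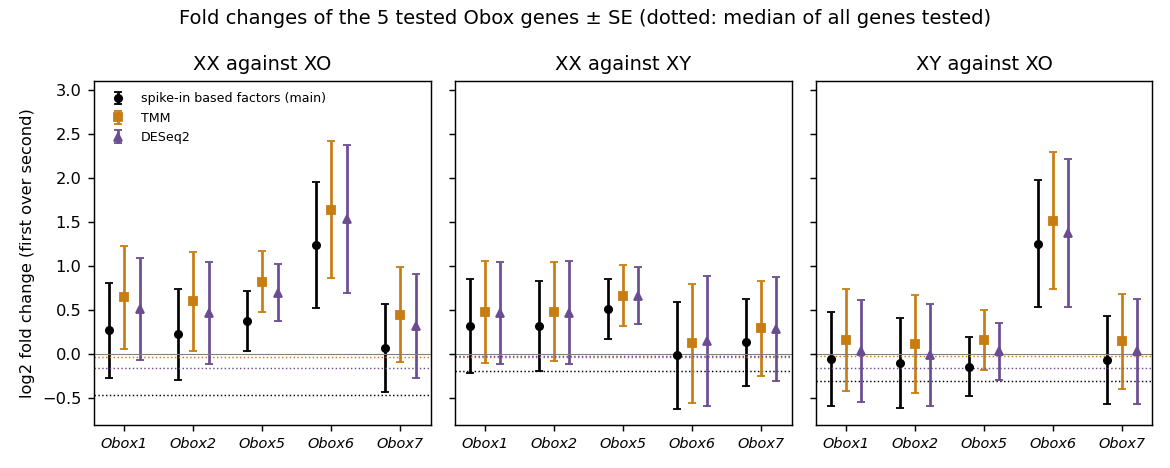
Log2 fold changes (y axis) with SE of the 5 tested Obox genes (x axis) in 3 contrasts, with the spike-in factors in edgeR (black circles), TMM factors over genes in edgeR (orange squares) and DESeq2 with its size factors (purple triangles); dotted lines of the same colours are the median of all tested genes. In the contrasts of XX with XO and XY the values of Obox5 move from 0.38 and 0.52 with the spike-in factors to 0.82 and 0.66 with TMM, and Obox6 has the widest errors.

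Obox5 was the member whose calls changed with the scaling, the tool and the surrogate variables in the contrast of XX with XO. As a share of all gene UMIs, which leaves the spike-ins out, it had 0.155, 0.180 and 0.141% in the XX samples, 0.0886, 0.0734 and 0.0839% in the XO samples and 0.113, 0.112 and 0.0775% in the XY samples. All 3 XX samples were above all 6 others on this scale, as they were for 4.28% of the genes tested. With TMM factors over genes in edgeR, Obox5 was called higher in XX than in XO oocytes, with a log2 fold change of 0.82 ± 0.34 (SE, adjusted p = 0.396), and 5.9% of all genes were called in this direction. The median of all genes was -0.03 in this fit. Against XY oocytes the same fit gave 0.66 ± 0.34 (adjusted p = 1.00) and no call.

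DESeq2 with its own size factors called Obox5 higher in XX oocytes against XO (0.70 ± 0.32, SE, adjusted p = 0.268) and against XY oocytes (0.67 ± 0.32, adjusted p = 0.859), where it called 4.07% and 2.62% of all genes in these directions. When 2 surrogate variables from sva were added to the edgeR fit with the spike-in factors, as the study did with its own model, Obox5 was called at a log2 fold change of 0.61 ± 0.24 for XX against XO (adjusted p = 0.193) and at 0.68 ± 0.18 for XX against XY (adjusted p = 0.025). This edgeR fit also called Obox1 (0.44, adjusted p = 0.144) and Obox2 (0.43, adjusted p = 0.142) for XX against XY. Over all genes it called 7.5% and 9.59% higher in the XX samples of these contrasts. In the deposited log2 values with batch effects regressed out by the authors, Obox5 was at 10.5, 10.7 and 10.5 for the XX samples, 9.64, 9.66 and 9.92 for XO and 10.0, 10.1 and 9.64 for XY. On this scale the XX samples lay above all others for Obox1 and Obox2 as well, and not for Obox7. The lowest XX and highest other values were 11.78 and 11.56 for Obox1 and 10.49 and 10.32 for Obox2. How many of all genes separate in this way was not counted. In both contrasts with XX the direction of Obox5 was the same in every fit, whereas its call was present in some fits and absent in others. For XX against XY, DESeq2 called a log2 fold change that edgeR with TMM, at nearly the same value, did not call.

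**Figure D4:**
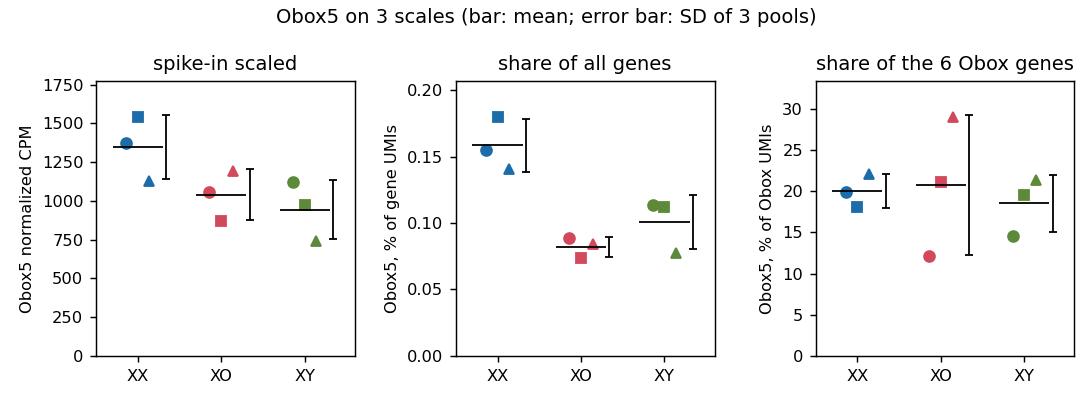
Obox5 in XX, XO and XY pools (x axis) on 3 scales from 0 (y axes): normalized CPM, percent of all gene UMIs and percent of the UMIs of the 6 Obox genes. Points are pools (circle, square and triangle for pools 1, 2 and 3), horizontal bars the mean and error bars the SD of 3 pools; as a share of gene UMIs the XX pools (0.141–0.180%) lie above the 6 others (0.0734–0.113%), whereas XX3 lies below XO3 in normalized CPM and the shares overlap.

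Obox6, the most diverged copy, had the largest log2 fold changes of the 5, 1.24 ± 0.72 for XX against XO (SE, adjusted p = 0.361 by edgeR), 1.25 ± 0.72 for XY against XO (adjusted p = 0.549) and -0.01 ± 0.61 for XX against XY (adjusted p = 1.00). With surrogate variables these 3 values were -0.05, 0.72 and -0.77, none of them called, so the direction for XX against XO was not kept. With UMIs summed over pools and scaled by the sample factors, Obox6 was 2.38 times as high in XX as in XO oocytes (34 against 9 UMIs, 95% counting interval from the exact binomial 1.12–5.64). Such an interval covers counting error only and leaves out the spread between pools, with which edgeR did not call Obox6 in all samples. Leaving out XO1, which held 7 of the 9 UMIs, brought the log2 fold change to 2.72 for XX and 2.74 for XY against XO oocytes, and both were called (edgeR, adjusted p = 0.031 and adjusted p = 0.045). In this smaller set 2.77% of 11590 tested genes were called higher for XX against XO and 4.53% higher for XY against XO. At an adjusted p below 0.05 by edgeR, 2923 genes passed in either direction for XX against XO and 1642 for XY against XO. With all samples these numbers were 0 and 4. The XO level then rested on 2 UMIs, and the ratio of 7.04 for XX had a counting interval of 1.81–60.5.

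Other transcription factors were examined in 3 lists. Of 8 tested oocyte transcription factors out of 9, 2 were called lower for XX against XO (16.7% of all genes) and 1 lower for XY against XO (8.24% of all genes), and none was called higher in any contrast. Their median log2 fold change was -0.44 for XX against XO, where that of all genes was -0.46. The 2 were Nobox, an oocyte homeobox gene needed for follicle growth (79.3 ± 25.6 normalized CPM for XX, 572 ± 543 for XO and 109 ± 68.3 for XY, SD, n = 3; adjusted p = 0.203 for XX against XO by edgeR), and the forkhead gene Foxr1 (4.39 ± 1.83, 19.9 ± 18.4 and 6.42 ± 5.28; adjusted p = 0.265). Nobox was also the gene called for XY against XO. It had 56.4 normalized CPM in XO1, 522 in XO2 and 1138 in XO3, so the XO samples that were low in Obox1 were high in Nobox. The call of Foxr1 was lost with TMM (-1.61) and with surrogate variables, where its log2 fold change was 0.02, while Nobox stayed called in both contrasts with TMM, DESeq2, surrogate variables and without XO1. The log2 fold change of Nobox was -2.85 for XX against XO and -2.38 for XY against XO, and with surrogate variables it shrank to -1.003 and -0.967. Without XO1 it was -3.39 and -2.92, and that of Foxr1 was -2.70 and -2.11, where Foxr1 was called in both contrasts. In this smaller set, 3958 of 11590 tested genes were called lower for XX against XO and 3195 lower for XY against XO.

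Of 12 factors of embryonic genome activation, the process in which OBOX proteins take part, 11 were in the matrix and 7 were tested. The 2 called for XX against XO, both lower (16.7% of all genes were), were Dppa4 (3.89 ± 1.56 against 50.1 ± 40.6 normalized CPM, SD, n = 3; adjusted p = 0.203 by edgeR), which binds chromatin together with Dppa2, and Nfya (3.33 ± 1.38 against 14.97 ± 11.4; adjusted p = 0.234), a subunit of the CCAAT-binding factor. Dppa4 was also called lower in XY than in XO oocytes (adjusted p = 0.489, with 8.24% of all genes called in this direction). In this fit no factor of the list was called between XX and XY oocytes, nor higher in XX or XY than in XO. With TMM, the calls of Nfya (-1.65) and of Dppa4 for XY against XO (-1.60) were lost, and with surrogate variables that of Nfya (-0.58). Calls were gained as well: Dppa4 was called lower in XX than in XY oocytes with surrogate variables (-1.28) and without XO1 (-1.71), and Nfya lower in XY than in XO oocytes without XO1 (-1.92). Genes called lower in XX than in XY oocytes were 1139 of 10993 with surrogate variables and 987 of 11590 without XO1. Without XO1, 3195 of 11590 were called lower in XY than in XO oocytes. Without XO1, the values for XX against XO were -4.17 for Dppa4 and -2.66 for Nfya, and Dppa4 was at -2.46 for XY against XO. The median of the list was -0.53 for XX against XO and -0.42 for XX against XY oocytes, where those of all genes were -0.46 and -0.19.

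Among 8 homeobox relatives of the PRD class, 7 were in the matrix and 2, Otx1 and Duxbl1, were tested. Otx1 was at 1.42, 1.05 and 0.61 normalized CPM in the XX samples, 3.62, 5.17 and 9.03 in the XO samples and 5.58, 9.44 and 13.3 in the XY samples, and the XX samples lay below all others. It was called lower for XX against XO (log2 fold change -2.49 ± 0.57, SE, adjusted p = 0.203 by edgeR) and for XX against XY (-3.17 ± 0.55, adjusted p = 0.108). In these contrasts 16.7% and 4.39% of all genes were called lower. Both calls of Otx1 were also made with TMM, DESeq2, surrogate variables and without XO1 (-2.75 for XX against XO). For XY against XO, where Otx1 was at 0.68, it was called higher in XY oocytes with TMM (1.01) and surrogate variables (1.08). These fits called 593 and 1118 of 10993 genes in this direction. Crx and Crxos, which lie on the same chromosome as the Obox genes, had 1 and 2 UMIs over the 9 samples. Obox1 was thus measured at a level far above these relatives in oocytes of every genotype.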

How the data were processed

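RNA of 9 pools of mouse oocytes (XX, XO and XY, n = 3 each) was analysed. The authors aligned reads with Hisat2 to GRCm38 and deposited counts of 5′ UMIs per gene (28052 genes and 79 ERCC spike-ins). They also deposited a signal called normalized CPM, the counts scaled by gene total and a TMM factor of the spike-ins, and log2 values from which batch effects had been regressed out. The factors computed here equalled the deposited ones. The alignment of reads that fit more than 1 Obox copy is not given in the sources used here. The unnumbered XO column was taken as XO1, since the others are numbered.

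Counts were tested with edgeR 4.0.16 (quasi-likelihood, filterByExpr, 10993 genes, 1 mean per genotype, two-sided, Benjamini-Hochberg adjustment over all genes tested). The script was tested on simulated data. Alternatives were TMM factors, DESeq2 1.42.0, no filter, the replicate number as a block, 2 variables from sva 3.50.0 and leaving out each sample. The labels call the pools biological triplicates, and it is not stated which animals they share. Same-numbered XO and XY samples deviated together from their genotype means in all 3 pairs (r = 0.814, 0.271 and 0.763). For XX with XO (0.444, -0.421 and 0.660) and XX with XY (0.410, -0.058 and 0.706) this held for pools 1 and 3 but not for pool 2. Sequences came from Gencode vM21 transcripts and RefSeq promoters, in which 5 of 6 members were found. Named are the members, the 5 genes most like their sum and the called genes of 3 lists. Members and lists were chosen with earlier results of these data known.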

Additional observations from a re-analysis of the deposited data

How the results depend on the processing

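No Obox gene was called in any contrast by edgeR with the spike-in factors and without covariates when all 9 samples were used, also without the filter on low counts and with the replicate block (0 calls in each contrast). In XX against XO oocytes, 1 member was called with TMM factors, DESeq2 or 2 surrogate variables beside the spike-in factors (Obox5 in each). In XX against XY oocytes, 1 was called with DESeq2 (Obox5) and 3 with surrogate variables (Obox1, Obox2 and Obox5). When samples were left out in turn, between 0 and 1 members were called in XX against XO, 0 in XX against XY and between 0 and 1 in XY against XO oocytes, and the 1 was Obox6 without XO1. The log2 ratio of the Obox sum for XX over XO was 0.81 as a share of gene UMIs, 0.66 with TMM and 0.53 with DESeq2 factors, and between 0.08 and 0.73 when samples were left out. For XX over XY it lay between 0.12 and 0.70, and for XY over XO between -0.43 and 0.38, when samples were left out.

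Directions of members changed only for values that were not called. In XY against XO oocytes, TMM gave 0.16 for Obox1, 0.12 for Obox2, 0.16 for Obox5 and 0.15 for Obox7, and DESeq2 0.040, 0.035 and 0.034 for Obox1, Obox5 and Obox7. In XX against XY oocytes, Obox6 was at 0.12 with TMM and 0.15 with DESeq2. In XX against XO oocytes, surrogate variables gave -0.046 for Obox6 and -0.11 for Obox7. Of 135 fold changes with 1 sample left out, 19 changed direction, none of them called. Leaving out samples moved Obox2 in XX against XO to between -0.019 and 0.84, Obox7 to between -0.22 and 0.54, and in XX against XY oocytes Obox6 to between -0.30 and 0.36 and Obox7 to between -0.15 and 0.62. In XY against XO oocytes the ranges were -0.45 to 0.53 for Obox1, -0.48 to 0.52 for Obox2, -0.28 to 0.0080 for Obox5 and -0.55 to 0.40 for Obox7. The causes were not tested. Within a genotype of 3 pools, levels differed up to 2.62-fold for Obox1 and up to 1.52-fold for Obox5. Such a spread limits which differences between genotypes can be told, but it is not itself the limit of detection.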
